A study of Mus musculus with 12 samples.

Results

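The leading edge (LE) of a healing tail wound was compared with control skin at day 4 (D4) after wounding, on 4 of the 12 arrays of the series: 2 of LE basal cells and 2 of control basal cells. The comparison covered all 17097 genes measured by a probe set annotated to 1 gene only. Each gene was represented by its brightest probe set, by the mean of all 12 arrays, so no gene was chosen for its difference. The full series also holds 2 arrays of a proliferative hub further from the wound at D4 and 2 of each region at D7.

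The mice were of the CD1 background, with no transgene or drug named in the labels, and had a 3 mm wound made in the tail skin. LE cells came from a 4 mm punch around the wound, hub cells from a 6 mm punch, and control cells from skin of the same tails far from the wound, so the controls also came from wounded mice. The study describes its wounded mice as adult, and their age is not stated for these pools. Each array held RNA of 300 living cells sorted for α6-integrin and against CD34 from a pool of 5 mice, a gate that takes basal cells of the interfollicular epidermis and infundibulum. The punch takes every basal cell within it, so cells at the very front and those just behind were not separated. Per the labels the 2 arrays of a group are biological replicates. Whether they were separate pools is not stated, and standard errors (SE) and p values rest on treating them as independent.

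After wounding, basal keratinocytes next to the gap flatten, loosen their hold on the basement membrane and neighbouring cells, and crawl as a sheet under the scab, while the cells behind them divide. For this wound the study proposes, from cell shape, that from D4 on the LE moves passively, possibly through the proliferating cells. Crawling cells rebuild their actin cytoskeleton, put out proteases that cut matrix and fibrin, and exchange integrins and matrix proteins at their base. They also work in a poorly perfused, low-oxygen bed and secrete growth factors that act on the dermis beneath.

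Values are log2 intensities, on which 1 unit is a factor of 2. Over all genes the arrays compared had a 5th percentile of 3.98 to 4.04, a median of 6.06 to 6.15 and a 95th percentile of 10.48 to 10.62, which allows a single level to be read as dim or bright. The 6 arrays of D7 had lower medians over all genes, 4.89 to 4.93, so no level was compared between the days, and whether the days were normalized together is not stated. Intensities of different probe sets are not on 1 scale, so levels were compared only within a gene, apart from the marker sums below. The replicate arrays differed by a median of 0.156 (LE) and 0.142 (control) over probe sets, and 186 and 240 genes differed by over 2-fold between them. That count was 156 in the hub at D4 and lower at D7, at 43 (LE), 74 (control) and 43 (hub). Differences are given as LE minus control, ± the SE, from a limma fit to all 12 arrays, which has 6 residual degrees of freedom, and a gene was called at an adjusted p under 0.05 (Benjamini-Hochberg over all genes). It pools the spread of both days, so the SE and p values at D4 rest partly on the closer D7 replicates. Fits on D4 arrays alone called fewer genes, as given at the end. The fit to all 12 arrays was repeated 12 times with 1 array left out each time (the leave-out fits), where the lone array of a group is assumed to vary like the others. A gene named below as having risen or fallen kept its call in all 12 of these fits unless the text says otherwise. Below, "every fit" means these 12 fits only, not the smaller fits and other alternatives given at the end.

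The labelled cell type was checked first. The basal keratins Krt5 and Krt14 read 12.6 to 12.7 in all 4 arrays, Col17a1, the collagen of hemidesmosomes, 12.6 to 12.7, and Trp63, the master transcription factor of basal keratinocytes, 11.9 to 12.1, and none of these 4 genes was called. Itga6, the antigen of the sort, read 11.72 and 11.66 in the LE and 11.29 and 11.24 in control, a difference of 0.42 ± 0.11 (adjusted p = 0.0328) that was missed in 4 of the 12 leave-out fits (adjusted p up to 0.136, without LE D4 replicate 1). Cd34, the antigen sorted against, stayed dim at 3.91 to 4.94. Among the markers of other cell types Ptprc, the pan-leukocyte antigen, read 3.79 to 3.92, Col1a1 and Pdgfra of fibroblasts at most 5.61 and 4.22, and Pecam1 and Cdh5 of endothelium 5.49 to 7.60, with none of these 5 called. Other members of the same lists were brighter or differed. Acta2, the smooth muscle actin, read 8.67 and 9.30 in the LE and 7.02 and 6.74 in control and was called higher, and Thy1, on both the immune and the fibroblast list, read 8.54 and 8.62 in the LE and 10.08 and 9.87 in control and was called lower. A second Acta2 probe set differed by 0.15 and was not called. Of the fibroblast list, Vim read 7.05 and 9.28 in the LE and 8.30 and 4.14 in control. Dcn read 7.37 and 5.38 in the LE and 7.76 and 8.17 in control, and neither was called. Pecam1 and Cdh5 read 7.60 and 7.37 in control replicate 1 and 5.51 and 5.49 in control replicate 2. Fabp4, on the endothelial and sebaceous lists, read 8.15 in control replicate 1 and 3.63 to 4.05 in the other 3 arrays. Lyve1 read 8.71 and 9.41 in the LE and 7.05 and 5.29 in control and was called higher, while H2-Ab1 of antigen-presenting cells read 8.05 and 6.86 in the LE and 4.69 and 5.09 in control and was not called. Of 24 immune markers 2 were called higher and 1 lower, of 17 endothelial markers 2 higher (Lyve1 and Tie1), of 17 fibroblast markers 1 higher and 1 lower, and of 8 muscle, nerve and blood markers limma called 0 (0 at an unadjusted p under 0.05). Over all genes 8.3% were called higher and 5.83% lower. Summed on the linear scale, the immune markers were 1469 to 1730 in the LE and 1908 to 2120 in control, the endothelial markers 6310 to 6611 and 6793 to 7627, and the fibroblast markers 1541 to 2099 and 1741 to 2160. Such sums are weighted towards bright members and do not count cells. By mean level the brightest was Thy1 (9.28) for the immune and fibroblast lists and Ramp2 (12.43) for the endothelial list. Thy1 was lower in the LE, and Ramp2 read 12.30 and 12.24 in the LE and 12.58 and 12.59 in control. The lower LE sums therefore do not show fewer cells of these types. The 12 melanocyte markers summed to 404.5 to 454.6 in the LE and 521 to 1303 in control, the highest in control replicate 1, where Tyrp1 read 8.48 against 4.42 to 4.62 in the other 3 arrays. Of these melanocyte markers 1 was called lower. The 20 markers of bulge and outer root sheath summed to 5031 to 5527 in the LE and 9858 to 11490 in control. Of these 5 were called lower, among them Krt15, Aldh3a1 and Gas1, and 1, Fgf18, was called higher. The 10 infundibulum markers, which the gate includes, summed to 5992 to 8410 in the LE and 4429 to 8437 in control with 1 called higher, Klk10. The 11 sebaceous markers summed to 2512 to 2764 in the LE and 2684 to 3621 in control, with 1 called higher. The part of these other cells in the differences below was not tested. In bulk samples, fewer cells of a type and less RNA per cell cannot be told apart.

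Across all genes, limma called 2416 (14.1%) between LE and control, of which 1419 (8.3%) rose and 997 (5.83%) fell in the LE. Every list count in this report is to be read against these shares. A count near them shows no change particular to its list. The lists were chosen with earlier results of these data known, so a count above these shares is a description and not a test. Without LE D4 replicate 1 the rises were 899, and without control D4 replicate 2 the falls were 647. Of the calls 595 higher and 424 lower were kept without any 1 array. The called differences were of moderate size for most genes, with medians of 0.82 and -0.81, and 516 and 371 exceeded 2-fold. Beyond 8-fold stood 52 genes that rose and 14 that fell. By a rule without a test, 304 genes (1.78%) exceeded control by over 2-fold in all 4 pairs of arrays and 199 (1.16%) lay as far below it. Both LE arrays lay above both control arrays for 4986 genes (29.2%) and below them for 3453 (20.2%), and every called gene was among these. Where such a separation is stated below for a called gene, it therefore adds nothing to the call. Under quantile normalization of the 12 arrays together the share of calls that were higher changed from 58.7% to 48.6%, and with each array centred on its median to 53.1%, so the balance of rises and falls depends on the scaling. The median difference over all genes was 0.03.

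**Figure D1:**
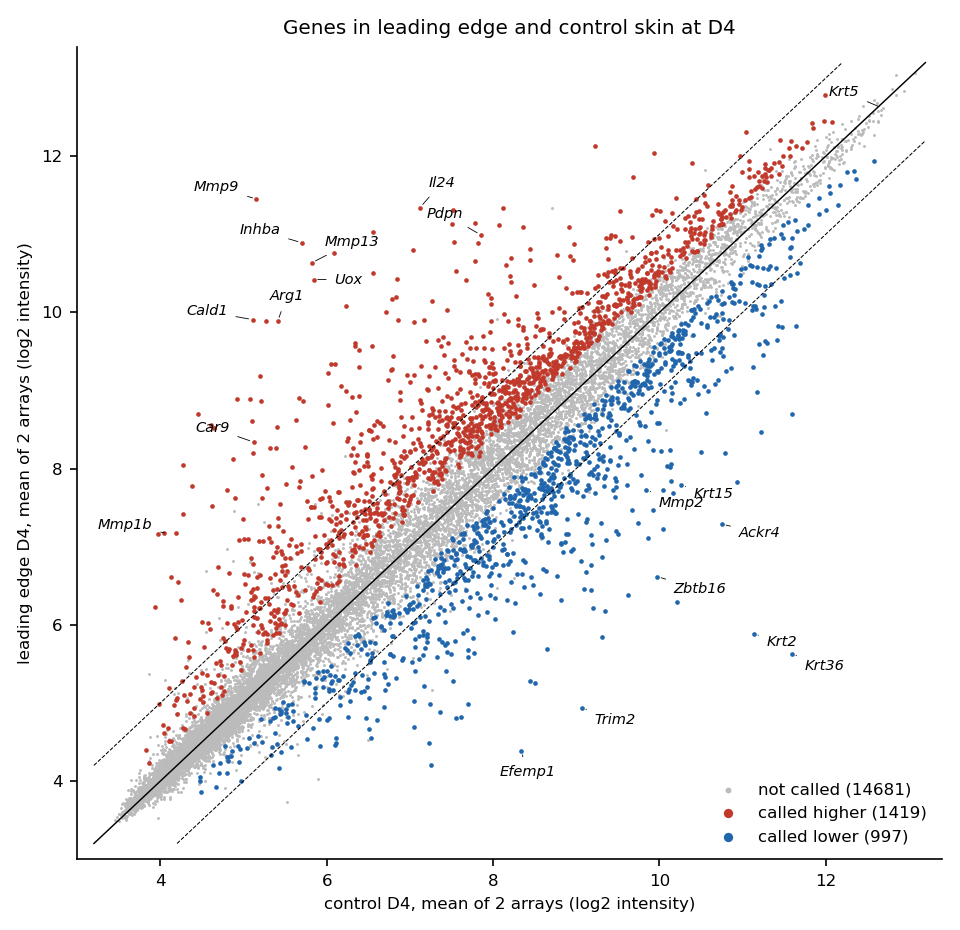
Mean log2 intensity of each gene in the 2 control arrays (horizontal) and the 2 leading edge arrays (vertical) at D4; red points were called higher (1419), blue points lower (997), the solid line marks no difference and the dashed lines 2-fold. Mmp9, Inhba and Mmp13 stand far above the line, Krt36 and Krt2 far below it, while Krt5 lies on it.

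The largest rise was that of Mmp9, a gelatinase that cleaves denatured and type IV collagen, and the largest fall was that of Krt36, a hair-type keratin of tail scale epidermis. Mmp9 read 11.73 and 11.18 in the LE and 5.49 and 4.82 in control, a difference of 6.30 ± 0.93 (adjusted p = 0.00176), or 78.6-fold. Krt36 read 5.79 and 5.47 in the LE and 11.65 and 11.54 in control, a difference of -5.97 ± 0.97 (adjusted p = 0.00305), or 62.6-fold lower. In both genes the groups lay much further apart than the arrays of each group. Inhba, which encodes the subunit of activin A, read 11.29 and 10.49 in the LE and 5.68 and 5.72 in control and rose 36.5-fold. A second Inhba probe set differed by only 0.10 and was not called. Uox, urate oxidase, read 10.72 and 10.13 in the LE and 6.09 and 5.60 in control and rose 23.9-fold, and Arg1, the arginase of the urea cycle, read 10.29 and 9.48 in the LE and 5.74 and 5.08 in control and rose 22.3-fold. Sh2d5, an SH2 domain protein, read 10.90 and 10.63 in the LE and 7.06 and 5.10 in control, with its control arrays further apart than its LE arrays, and Tmigd1, an immunoglobulin domain protein, read 8.69 and 8.71 in the LE and 4.40 and 4.49 in control, with close replicates in both groups. Hmga2, a chromatin protein of embryonic and proliferating cells, rose by 3.96 ± 0.60 (adjusted p = 0.00203), and Cpn1, the catalytic subunit of carboxypeptidase N, by 3.85 ± 0.21 (adjusted p = 1.14e-05).

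The genes that fell most included secreted, membrane and intracellular proteins. Trim2, a ubiquitin ligase, read 4.83 and 5.05 in the LE and 8.75 and 9.39 in control and fell by 4.13 ± 0.30 on the log2 scale. Efemp1, an extracellular matrix glycoprotein of the fibulin family, read 4.17 and 4.60 in the LE and 7.79 and 8.88 in control, with LE values near the dim end of the arrays. Gpnmb read 6.16 and 6.61 in the LE and 9.67 and 9.57 in control, Spock2, a matrix proteoglycan, 6.28 and 6.07 in the LE and 9.28 and 9.40 in control, and Fcgbp, a mucin-like secreted protein, 8.36 and 7.31 in the LE and 10.88 and 10.99 in control. For each of these genes even the higher LE array lay far below both control arrays. Mt4, the metallothionein of stratified epithelia, read 8.17 and 9.22 in the LE and 11.53 and 11.66 in control, and Gpha2, a glycoprotein hormone subunit, 4.59 and 5.92 in the LE and 8.02 and 8.99 in control. Clu (clusterin), Cyp4b1 and Cpxm2 fell, with differences of -2.83, -2.76 and -2.99. The call of Slfn3 (-3.05) was missed in 8 of the 12 leave-out fits (adjusted p up to 0.151, without LE D4 replicate 1), a second probe set of that gene read 0.14, and that of F2r, the thrombin receptor (-2.79), was lost without LE D4 replicate 1 (adjusted p = 0.0697) and control D4 replicate 2 (0.065).

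**Figure D2:**
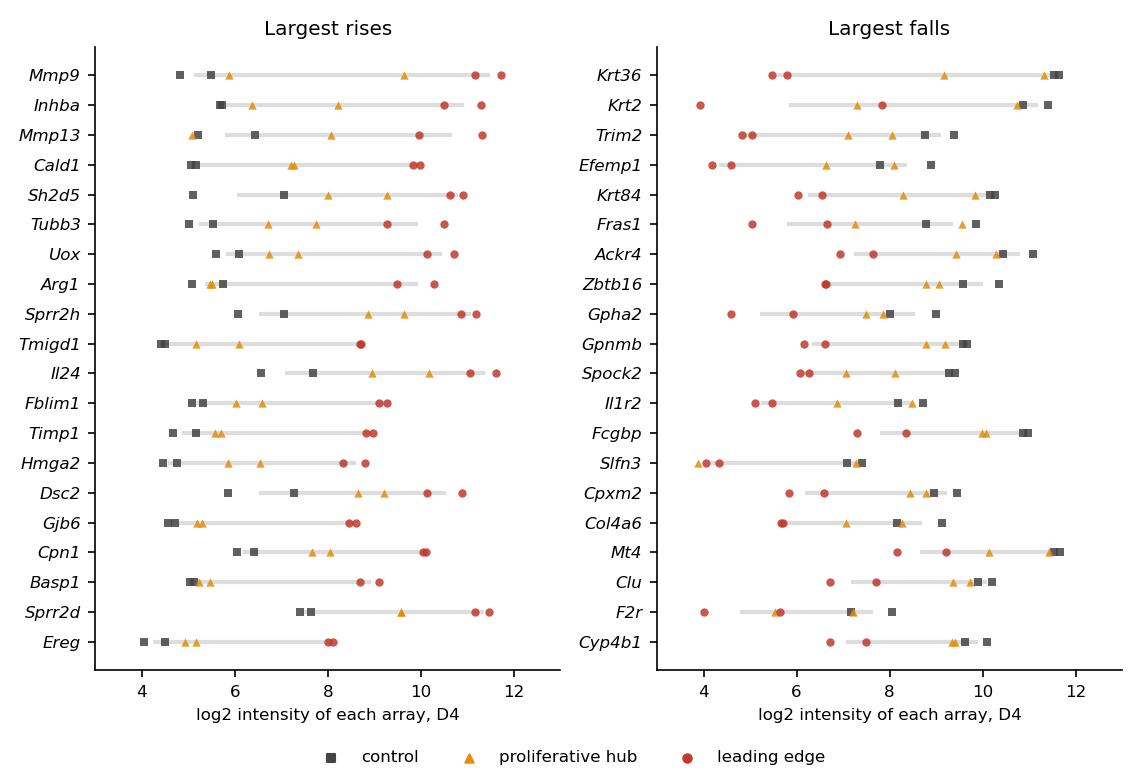
Log2 intensity of each D4 array for the 20 genes with the largest rises (left) and falls (right) among those called and over 2-fold apart in all 4 pairs of arrays; squares are control, triangles the proliferative hub and circles the leading edge, and the grey bar joins the control and leading edge means. By the rule that chose these 40 genes their circles and squares cannot overlap, and the hub arrays lie between them for most.

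Matrix proteases changed gene by gene. Of 18 measured matrix metalloproteinases 6 rose and 1 fell, with a median difference of 0.24, and the count of rises was 3 without control D4 replicate 2. Mmp13, a collagenase of migrating keratinocytes and bone, read 11.31 and 9.96 in the LE and 5.21 and 6.43 in control and rose by 4.82 ± 0.89 (adjusted p = 0.00601). Mmp1b, a rodent collagenase-like gene, read 7.28 and 7.07 in the LE and 3.95 and 4.15 in control and rose by 3.13 ± 0.22 (adjusted p = 3.47e-05). No LE array of either gene came near a control array. The stromelysins Mmp10 and Mmp3 rose by 3.58 ± 0.80 and 1.19 ± 0.26, but these calls were lost without LE D4 replicate 1 (adjusted p = 0.11) and control D4 replicate 2 (0.0945) for Mmp10 and lost without control D4 replicate 2 (adjusted p = 0.0834) and LE D4 replicate 1 (0.0829) for Mmp3. Mmp2, the gelatinase best known from stromal cells, went the other way, from 9.89 and 9.79 in control to 7.71 and 7.74 in the LE, a fall of 4.34-fold (adjusted p = 2.09e-05) with nearly equal replicates. Of the tissue inhibitors, Timp1 read 8.98 and 8.81 in the LE and 5.17 and 4.66 in control and rose 15.8-fold, while Timp3, the matrix-bound inhibitor, fell by 2.29 ± 0.29 (adjusted p = 0.00076). Timp1 and Timp3 moved in opposite directions, and so did the gelatinases Mmp9 and Mmp2.

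Of 11 genes of plasminogen activation 3 rose and limma called 0 lower (2 by unadjusted p under 0.05). Plaur, the urokinase receptor that focuses plasmin at the cell surface, read 8.98 and 9.32 in the LE and 7.95 and 7.60 in control and rose by 1.37 ± 0.23 (adjusted p = 0.00325). Procr, the endothelial protein C receptor, read 11.11 and 10.50 in the LE and 8.27 and 5.81 in control and rose by 3.77 ± 0.63 (adjusted p = 0.0035), with control replicates further apart than those of any other gene of this list. Plau, urokinase itself, rose by 0.89 ± 0.24 (adjusted p = 0.0327), a call missed in 4 of the 12 leave-out fits (adjusted p up to 0.206, without LE D4 replicate 1). Of 15 ADAM and ADAMTS proteases 6 rose, 2 without control D4 replicate 2 and 3 without LE D4 replicate 2, and limma called 0 lower (2 by unadjusted p under 0.05). Adam10, the sheddase of Notch and cadherins, rose by 0.94 ± 0.14 (adjusted p = 0.00209) and Adam12 by 1.08 ± 0.18 (adjusted p = 0.00368). Of 14 epidermal kallikreins and serpins, Klk10, Spink5 and Serpinb6a rose, by 2.48, 1.66 and 1.62, and 3 fell (1 without LE D4 replicate 2), with the count of rises 5 without LE D4 replicate 2. Ctsc, the dipeptidyl peptidase that activates granule proteases, rose by 1.95 ± 0.17 (adjusted p = 0.000123), and the cathepsin Ctsf fell by 1.75 ± 0.12 (adjusted p = 3.3e-05).

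Promoter windows were read for a feature that these protease genes may share. The 250 bases before the annotated start of 13605 genes (RefSeq, GRCm38.p6) were searched on both strands for TGANTCA, the letters bound by AP-1, the dimer of Jun and Fos proteins that drives collagenase and stromelysin genes in textbook accounts. The motif was found in 5.67% of all windows, in 5.42% of the windows of genes called higher and in 4.3% of those called lower. Of the 18 metalloproteinases 13 had a window and 7 held the motif, among them all 5 called higher that had a window. Of the plasminogen activation genes 5 of 7 windows held it. A match is only a stretch of letters in this window and does not show binding. The windows of Mmp13 (chr9:7272264-7272513, plus strand), Mmp1b (chr9:7388027-7388276, minus strand) and Plaur (chr7:24462233-24462482, plus strand) are shown because these genes rose in every fit. Capitals mark the motif, which begins 35, 93 and 69 bases before the start in that order.

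Mmp13: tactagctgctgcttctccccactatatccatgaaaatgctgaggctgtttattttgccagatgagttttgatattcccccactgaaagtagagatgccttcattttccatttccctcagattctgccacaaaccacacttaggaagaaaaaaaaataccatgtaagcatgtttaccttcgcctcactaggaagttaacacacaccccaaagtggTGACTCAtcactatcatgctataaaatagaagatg

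Mmp1b: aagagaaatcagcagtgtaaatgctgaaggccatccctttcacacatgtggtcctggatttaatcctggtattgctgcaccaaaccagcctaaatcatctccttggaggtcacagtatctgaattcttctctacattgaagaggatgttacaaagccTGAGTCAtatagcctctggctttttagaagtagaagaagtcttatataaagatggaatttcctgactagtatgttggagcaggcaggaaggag

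Plaur: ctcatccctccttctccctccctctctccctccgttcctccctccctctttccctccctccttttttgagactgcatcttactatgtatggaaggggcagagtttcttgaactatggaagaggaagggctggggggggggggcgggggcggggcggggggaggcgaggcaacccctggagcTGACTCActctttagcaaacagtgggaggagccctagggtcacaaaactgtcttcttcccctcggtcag

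The transcripts of the AP-1 factors themselves did not rise. Of 16 measured members limma called 0 higher (0 by unadjusted p under 0.05) and 7 lower (4 without control D4 replicate 1), with a median difference of -0.40 against 0.03 over all genes. Junb read 9.34 and 9.29 in the LE and 10.17 and 10.16 in control and fell by 0.85 ± 0.12 (adjusted p = 0.00133), Jun fell by 0.66 ± 0.10 (adjusted p = 0.00227), Fosb fell by 0.64 ± 0.11 (adjusted p = 0.00332) and Atf3, a stress-induced partner, fell by 0.65 ± 0.091 (adjusted p = 0.00133). For each of these genes both LE arrays lay below both control arrays. The call of Fosl1, Fra-1, at -0.53 was missed in 3 of the 12 leave-out fits (adjusted p up to 0.1, without control D4 replicate 1).

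Genes of the actin cytoskeleton rose together. Of 49 measured actin and actin-binding genes 26 rose and 1 fell, or 53.1% higher against 8.3% over all genes, with a median of 0.52, and 17 of the rises were kept without any 1 array. Basp1, a membrane-associated protein of growing processes, and Marcksl1, which links membrane and actin, rose by 3.81 ± 0.17 (adjusted p = 3.67e-06) and 3.37 ± 0.15 (adjusted p = 4.09e-06). Marcksl1 read 11.35 and 10.95 in the LE and 7.86 and 7.71 in control, and its 3 probe sets were all called higher. Fblim1 (migfilin), which couples filamin to adhesion sites, read 9.26 and 9.10 in the LE and 5.32 and 5.08 in control and rose 15.8-fold. Actn1, the α-actinin of stress fibres and focal adhesions, read 11.88 and 11.60 in the LE and 9.98 and 9.40 in control and rose by 2.05 ± 0.19 (adjusted p = 0.000148). The formin Fmnl2 rose by 1.60, vinculin (Vcl) by 0.85, Vasp by 0.84 and the Arp2/3 subunit Arpc5 by 0.80. The second Arpc5 probe set went the other way, at -0.71. With the mean of its probe sets limma did not call Arpc5 (adjusted p = 0.93). Tpm2, a tropomyosin, rose by 1.27 ± 0.13 (adjusted p = 0.00023), although the 3 other probe sets of Tpm2 ran from -0.27 to 1.28. The 1 member that fell was Gsn, gelsolin, which severs actin filaments: it read 10.17 and 10.29 in the LE and 11.22 and 11.29 in control, a difference of -1.03 ± 0.11 (adjusted p = 0.00031), with 4 other probe sets from -1.41 to 0.08.

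Among 21 myosins 4 rose and limma called 0 lower (1 by unadjusted p under 0.05). These were the vesicle motor Myo5b by 1.84 ± 0.31 (adjusted p = 0.00342), the heavy chain Myh9 of non-muscle myosin by 0.94 ± 0.13 (adjusted p = 0.00111), the filopodial Myo10 by 0.86 ± 0.15 (adjusted p = 0.00396) and the unconventional myosin Myo9b by 0.77 ± 0.14 (adjusted p = 0.00636). The 2 other Myo5b probe sets read 0.35 and 0.37 and were not called. A second Myo9b probe set read -0.09, and with the mean of its probe sets limma did not call Myo9b (adjusted p = 0.0623). Of 16 tubulins 4 rose and limma called 0 lower (0 by unadjusted p under 0.05). Tubb3, the β-tubulin best known from neurons, read 10.49 and 9.28 in the LE and 5.53 and 5.02 in control and rose 24.5-fold, with the groups far apart. Tubb2a read 10.81 and 10.64 in the LE and 9.15 and 8.69 in control, and Tubb6 rose by 1.26 ± 0.11 (adjusted p = 0.000107). Limk1, the kinase that inactivates cofilin, rose by 1.71 ± 0.17 (adjusted p = 0.000221), while its 2 other probe sets read 0.17 and 0.24 and were not called. Nav2, a microtubule-associated neuron navigator, rose by 3.14, but 1 of its 5 other probe sets read -0.03.

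At the base of the cells, integrin β1 and its fibronectin-binding partner rose. Of 17 integrin subunits 5 rose (2 without LE D4 replicate 1 and 3 without control D4 replicate 2) and 1 fell. Itga5, the α-chain of the fibronectin receptor, read 8.73 and 8.37 in the LE and 6.98 and 6.36 in control and rose by 1.88 ± 0.34 (adjusted p = 0.00526). Itgb1, the shared β-chain, read 11.94 and 11.72 in the LE and 11.10 and 11.06 in control and rose by 0.75 ± 0.12 (adjusted p = 0.00313). The collagen receptor chain Itga2 rose by 1.43 ± 0.30 (adjusted p = 0.0116), a call lost without LE D4 replicate 1 (adjusted p = 0.0842). In each of the 3 genes both LE arrays lay above both control arrays.

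Basement membrane genes moved both ways, with 6 of 27 higher, 8 lower (4 without LE D4 replicate 1 or control D4 replicate 2 and 5 without LE D4 replicate 2) and a median of 0.03. Fn1, fibronectin, the provisional matrix protein, read 6.46 and 6.43 in the LE and 4.67 and 4.60 in control and rose by 1.82 ± 0.18 (adjusted p = 0.000212), from a dim level. The laminin chains of the keratinocyte laminin, Lama3 and Lamb3, rose by 0.87 ± 0.11 and 0.76 ± 0.12, while a second Lama3 probe set read -0.07. The type IV collagen chains split by their chain type. The widespread chains Col4a1 and Col4a2 rose by 1.96 ± 0.29 (adjusted p = 0.00169) and 1.33 ± 0.24 (adjusted p = 0.00517), and Col4a6 of epithelial basement membranes read 5.71 and 5.68 in the LE and 8.16 and 9.14 in control and fell by 2.95 ± 0.38 (adjusted p = 0.000793). Npnt, nephronectin, a ligand of integrin α8β1, read 7.06 and 6.83 in the LE and 8.90 and 8.98 in control and fell by 1.99 ± 0.13 (adjusted p = 2.09e-05). Dst, dystonin, whose epithelial form anchors keratins to hemidesmosomes, fell by 1.06 ± 0.11 (adjusted p = 0.000228). Fras1, a basement membrane protein, differed by -3.47, a call lost without LE D4 replicate 1 (adjusted p = 0.065) and control D4 replicate 2 (0.0551). Of 18 matricellular proteins 4 fell, among them Efemp1, Ccn1 (-1.63) and Postn (-1.32), and 2 rose (0 without LE D4 replicate 1 and 1 without LE D4 replicate 2 or either control D4 array).

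Cell-cell junction genes changed individually. Of 15 desmosome genes 3 rose and 1 fell. The desmogleins split, for Dsg1b rose by 0.95 ± 0.15 (adjusted p = 0.00278) and Dsg1a fell by 1.54 ± 0.29 (adjusted p = 0.00662). Of 23 adherens and tight junction genes 4 rose (2 without LE D4 replicate 1 or control D4 replicate 1) and 3 fell. Nectin4 rose by 1.17 ± 0.17 (adjusted p = 0.00162). Cldn1, the claudin of the epidermal barrier, fell by 0.93 ± 0.12 (adjusted p = 0.00102) and Cdh13, T-cadherin, fell by 1.85 ± 0.14 (adjusted p = 4.58e-05). Of 10 connexins and pannexins 2 rose, Gjb6 and Gjb2, and limma called 0 lower (0 by unadjusted p under 0.05). Gjb6 (connexin 30) read 8.60 and 8.45 in the LE and 4.57 and 4.71 in control, from dim in control to clearly above the array median in the LE. Pcdh7, a protocadherin, rose by 2.00 ± 0.31 (adjusted p = 0.00244). Corneodesmosin (Cdsn) differed by 3.24, a call lost without control D4 replicate 1 (adjusted p = 0.0585).

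The pericellular coat and ion channels also changed. Of 22 genes of hyaluronan, its receptors and proteoglycans 6 rose and 1 fell. The hyaluronan synthases Has2 and Has3 read 9.65 and 9.62 in the LE and 7.62 and 6.77 in control for Has2 and 10.07 and 9.95 in the LE and 7.22 and 6.21 in control for Has3. Ugdh, which makes the sugar precursor of hyaluronan, rose by 1.19 ± 0.14 (adjusted p = 0.00044). Pdpn, podoplanin, a mucin-like protein of migrating and lymphatic cells, read 11.11 and 10.88 in the LE and 7.96 and 7.75 in control, with close replicates. Lyve1, a hyaluronan receptor best known from lymphatic endothelium, rose by 2.89 ± 0.49 (adjusted p = 0.00371), while the other markers of endothelium were as given above. Of 31 ion channel and transporter genes 7 rose (4 without LE D4 replicate 1 or control D4 replicate 1) and 3 fell (1 without LE D4 replicate 2 or control D4 replicate 2). Kcnn4, a calcium-activated potassium channel, read 10.09 and 10.25 in the LE and 7.13 and 6.44 in control and rose by 3.38 ± 0.39 (adjusted p = 0.000463), and the leak channel Kcnk1 by 2.61 ± 0.27 (adjusted p = 0.000261).

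Secreted signals are given by family. In the activin, BMP and TGF-β pathway 5 of 40 genes rose and 9 fell, with a median of 0.01, against 8.3% higher and 5.83% lower over all genes. Inhba, Tgfb1 and Ltbp1, which holds latent TGF-β in the matrix, were the rises kept in every fit, with Tgfb1 at 9.72 and 9.37 in the LE and 7.78 and 7.99 in control. Ltbp1 had 2 other probe sets at -0.06 and 0.01, and Inhba had 1 other at 0.10. Bmp2 read 6.53 and 7.20 in the LE and 9.03 and 9.60 in control and fell by 2.45 ± 0.38 (adjusted p = 0.00241). Id3 and Id4, inhibitors of differentiation that BMP signals induce in many cells, fell, with differences of -1.71 ± 0.16 (adjusted p = 0.000173) and -1.43 ± 0.25 (adjusted p = 0.00458), and the coreceptor Tgfbr3 fell by 1.38 ± 0.24 (adjusted p = 0.00452). The activin subunit gene and Tgfb1 rose while Bmp2 and both Id genes fell.

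Of 49 Wnt pathway genes 3 rose (1 without LE D4 replicate 2 or control D4 replicate 2 and 5 without either hub D4 array) and 9 fell (3 without LE D4 replicate 1, 4 without control D4 replicate 2 and 5 without LE D4 replicate 2 or either control D7 array). Wnt5a, a ligand of β-catenin-independent Wnt signals, read 7.64 and 7.80 in the LE and 4.76 and 4.84 in control and rose by 2.92 ± 0.26 (adjusted p = 0.000123), and 1 other probe set gave the same value. Its receptor Ror1 fell by 1.43 ± 0.21 (adjusted p = 0.00186), and Lgr4, an R-spondin receptor, fell by 1.76 ± 0.29 (adjusted p = 0.00316). Axin2, a common readout of β-catenin signals, differed by -0.69, a call missed in 4 of the 12 leave-out fits (adjusted p up to 0.11, without control D4 replicate 1). Of 24 Notch genes, Nrarp rose by 1.08 ± 0.11 (adjusted p = 0.0003) and Lfng fell by 1.07 ± 0.14 (adjusted p = 0.00109), in a list with 2 rises (1 without control D4 replicate 2) and 3 falls (1 without LE D4 replicate 2 or control D4 replicate 2). Of 24 YAP/TAZ genes and targets 2 rose (1 without LE D4 replicate 1 or control D4 replicate 1) and 5 fell (2 without LE D4 replicate 2 or control D4 replicate 2 and 3 without LE D4 replicate 1, control D4 replicate 1 or either control D7 array). Tead4, a DNA-binding partner of YAP, rose by 2.37 ± 0.22 (adjusted p = 0.000148). Ptpn14, which restrains YAP, fell by 2.50 ± 0.39 (adjusted p = 0.00237), and Ccn1, a standard YAP target, fell by 1.63 ± 0.20 (adjusted p = 0.000586). The share of rises in the Wnt, Notch and YAP/TAZ lists was near the 8.3% over all genes. The falls, 9 of 49, 3 of 24 and 5 of 24 in that order, were a larger share than the 5.83% over all genes. In some leave-out fits these counts of falls were smaller, as given.

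Of 14 EGF family ligands and receptors 4 rose (2 without LE D4 replicate 1 or control D4 replicate 2) and limma called 0 lower (1 by unadjusted p under 0.05). Tgfa, a ligand of the EGF receptor, read 10.18 and 9.58 in the LE and 7.25 and 6.84 in control. In the feedback genes of this pathway 6 of 22 fell and 2 rose (0 without LE D4 replicate 1 or control D4 replicate 2 and 1 without LE D4 replicate 2, either LE D7 array, either hub D7 array or either control D7 array). Errfi1, which binds and inhibits the EGF receptor, read 9.58 and 10.04 in the LE and 11.50 and 11.45 in control and fell by 1.67 ± 0.17 (adjusted p = 0.000268). Lrig3 and Dusp8, a membrane regulator of receptor kinases and a MAP kinase phosphatase, fell, with differences of -1.31 ± 0.13 (adjusted p = 0.000199) and -1.39 ± 0.19 (adjusted p = 0.00109), and Spred2 fell by 0.73 ± 0.14 (adjusted p = 0.00758). These 4 inhibitors were the members of the list whose falls were kept in every fit.

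Of 28 FGF, VEGF, PDGF and HGF genes 4 rose (2 without LE D4 replicate 1) and 5 fell. The ligands Fgf18 and Vegfa, which drives vessel growth, rose by 2.10 ± 0.17 (adjusted p = 6.64e-05) and 1.14 ± 0.13 (adjusted p = 0.000374). The receptors Fgfr1, Fgfr2 and Fgfr3 fell, with differences of -1.32 ± 0.15, -1.09 ± 0.14 and -0.94 ± 0.11. Of 47 ephrin and axon guidance genes 7 rose and 7 fell. Flrt2, a leucine-rich adhesion protein and repellent ligand, read 11.11 and 10.69 in the LE and 7.54 and 8.09 in control and rose by 3.08 ± 0.24 (adjusted p = 5.51e-05), and its relative Flrt3 rose by 1.10 ± 0.10 (adjusted p = 0.000145). The semaphorins Sema6d and Sema4d rose by 2.11 ± 0.30 (adjusted p = 0.00135) and 1.96 ± 0.12 (adjusted p = 1.86e-05), while the netrin receptor Unc5b fell by 1.80 ± 0.19 (adjusted p = 0.00028). Efnb1 rose by 0.90 ± 0.14 (adjusted p = 0.00259) and its relative Efnb2 fell by 0.76 ± 0.13 (adjusted p = 0.00339).

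Genes of glycolysis and the hypoxia response rose together. Of 35 measured genes 21 rose (60%) and limma called 0 lower (1 by unadjusted p under 0.05), with a median of 0.50 against 0.03 over all genes, and 15 of the rises were kept without any 1 array. Car9, a membrane carbonic anhydrase that is a classic target of hypoxia-inducible factor (HIF), read 8.52 and 8.16 in the LE and 5.44 and 4.80 in control and rose by 3.22 ± 0.26 (adjusted p = 7.29e-05). Slc16a3, the exporter of lactate in glycolytic cells, read 10.75 and 10.30 in the LE and 7.27 and 7.85 in control and rose by 2.97 ± 0.23 (adjusted p = 4.86e-05). Bnip3, a mitochondrial protein of hypoxia-induced mitophagy, read 10.89 and 10.87 in the LE and 9.03 and 8.93 in control and rose by 1.90 ± 0.15 (adjusted p = 5.22e-05). For all 3 genes both LE arrays lay well above both control arrays. Pfkfb3, which makes the activator of phosphofructokinase, rose by 1.35 ± 0.22 (adjusted p = 0.00291), the oxidase Ero1a by 1.31 ± 0.12 (adjusted p = 0.000167) and the collagen prolyl hydroxylase P4ha2 by 1.20 ± 0.17 (adjusted p = 0.00161). The glycolytic enzymes rose less, Pfkl by 0.85, Tpi1 by 0.68 and Pgk1 by 0.60. Car2, a cytosolic carbonic anhydrase, rose by 2.38 ± 0.36 (adjusted p = 0.00202), and with Car9 it made up the rises kept in every fit among 16 carbonic anhydrases, of which 3 were called higher and 1 lower.

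The core letters of the HIF site, ACGTG, are short and stood in 19.8% of all 13605 windows and 22.9% of those of genes called higher. In the glycolysis and hypoxia list they stood in 16 of 31 windows, and in 13 of the 19 windows of its members called higher. The motif shares letters with the E-box CACGTG. The window of Car9 (chr4:43506776-43507025, plus strand) is shown because Car9 rose most in this list. Its match, read here as CACGT since the motif lies on the other strand, begins 18 bases before the start and is in capitals.

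Car9: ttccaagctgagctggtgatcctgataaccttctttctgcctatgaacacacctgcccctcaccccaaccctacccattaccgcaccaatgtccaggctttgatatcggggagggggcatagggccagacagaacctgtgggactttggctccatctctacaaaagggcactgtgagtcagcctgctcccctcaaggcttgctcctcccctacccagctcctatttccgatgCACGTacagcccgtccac

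Of the 66 lists examined, cholesterol synthesis had the highest median difference, 0.96. Of 21 genes 14 rose (66.7%), 10 of them in every fit, and 1 fell. Stard4, a carrier of sterols inside cells, read 7.83 and 8.01 in the LE and 4.86 and 5.59 in control and rose by 2.69 ± 0.24 (adjusted p = 0.000107). Insig1, which holds the sterol sensor in the endoplasmic reticulum and is itself induced when sterols are low, read 9.45 and 9.46 in the LE and 7.56 and 7.25 in control and rose by 2.05 ± 0.13 (adjusted p = 2.39e-05). The enzymes Idi1, Hsd17b7 and Fdps rose by 2.17 ± 0.39 (adjusted p = 0.00507), 1.78 ± 0.23 (adjusted p = 0.000926) and 1.47 ± 0.19 (adjusted p = 0.000896). Idi1 read 9.32 and 9.30 in the LE and 7.67 and 6.61 in control, with all LE values above both control values. Hmgcs1, an early enzyme of the pathway, was 0.98 ± 0.31 (adjusted p = 0.0678) and not called. The member that fell, Abcg1, exports cholesterol from cells instead of making it, at -2.72, a call lost without LE D4 replicate 2 (adjusted p = 0.0506) and control D4 replicate 2 (0.0504). In the fatty acid and lipid droplet list 6 of 34 genes rose and limma called 0 lower (2 by unadjusted p under 0.05), with a median of 0.32. Plin2, a coat protein of lipid droplets, rose by 1.59 ± 0.20 (adjusted p = 0.000774), the nuclear receptor Ppard by 1.71 ± 0.16 (adjusted p = 0.000149) and the triglyceride synthase Dgat1 by 1.39 ± 0.22 (adjusted p = 0.00262).

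The letters CCAAT, bound by NF-Y, which acts beside the sterol-sensing factors, stood in 35.9% of all windows and 36.3% of those called higher. In the cholesterol list 15 of 16 windows held them, 9 of 10 among the members called higher. In the G2/M list, whose promoters are known for the same letters, 20 of 26 windows held them. The window of Insig1 (chr5:28071162-28071411, plus strand) carries the match as ATTGG, on the other strand, 216 bases before the start, and is shown because Insig1 also differed between the days.

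Insig1: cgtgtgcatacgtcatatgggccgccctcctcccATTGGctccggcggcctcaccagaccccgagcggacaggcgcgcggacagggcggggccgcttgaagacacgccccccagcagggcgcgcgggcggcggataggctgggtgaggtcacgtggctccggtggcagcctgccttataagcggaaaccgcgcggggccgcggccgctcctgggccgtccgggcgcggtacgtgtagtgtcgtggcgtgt

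Of 41 genes of the unfolded protein and integrated stress response 16 rose and 1 fell, with a median of 0.42. The count of rises was 6 without LE D4 replicate 1, against 8.3% over all genes a share of 39% in the full fit. Trib3, a pseudokinase induced by the factor ATF4, read 8.59 and 8.66 in the LE and 6.16 and 6.39 in control and rose by 2.35 ± 0.19 (adjusted p = 7.29e-05). Nupr1, a stress-induced chromatin protein, read 10.60 and 10.11 in the LE and 8.64 and 8.35 in control and rose by 1.86 ± 0.23 (adjusted p = 0.000688). The endoplasmic reticulum proteins Creld2, Dnajb11 and Manf rose by 1.16 ± 0.15 (adjusted p = 0.000862), 0.89 ± 0.14 (adjusted p = 0.00256) and 0.89 ± 0.10 (adjusted p = 0.000489). Hspa5 (BiP), the main chaperone of this compartment, rose by 0.59 ± 0.17 (adjusted p = 0.0472), a call missed in 9 of the 12 leave-out fits (adjusted p up to 0.278, without LE D4 replicate 1). Phgdh, the first enzyme of serine synthesis, fell by 0.92 ± 0.15 (adjusted p = 0.00342).

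The endoplasmic reticulum stress element is the letters CCAAT and CCACG set 9 bases apart. It was found in 0.14% of all windows, 19 in number, of which 8 belonged to this list of 36 windows, 5 of them among the 15 members called higher. These 19 windows are a subset of those that hold CCAAT. The window of Creld2 (chr15:88819396-88819645, plus strand) is shown as the member with the element that rose most. The element, in capitals, begins 126 bases before the start and is written as on the other strand.

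Creld2: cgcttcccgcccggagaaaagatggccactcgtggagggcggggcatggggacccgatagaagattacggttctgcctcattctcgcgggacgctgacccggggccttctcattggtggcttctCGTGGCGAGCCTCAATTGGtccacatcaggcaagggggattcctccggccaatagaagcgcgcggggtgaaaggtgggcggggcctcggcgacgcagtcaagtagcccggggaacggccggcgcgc

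**Figure D3:**
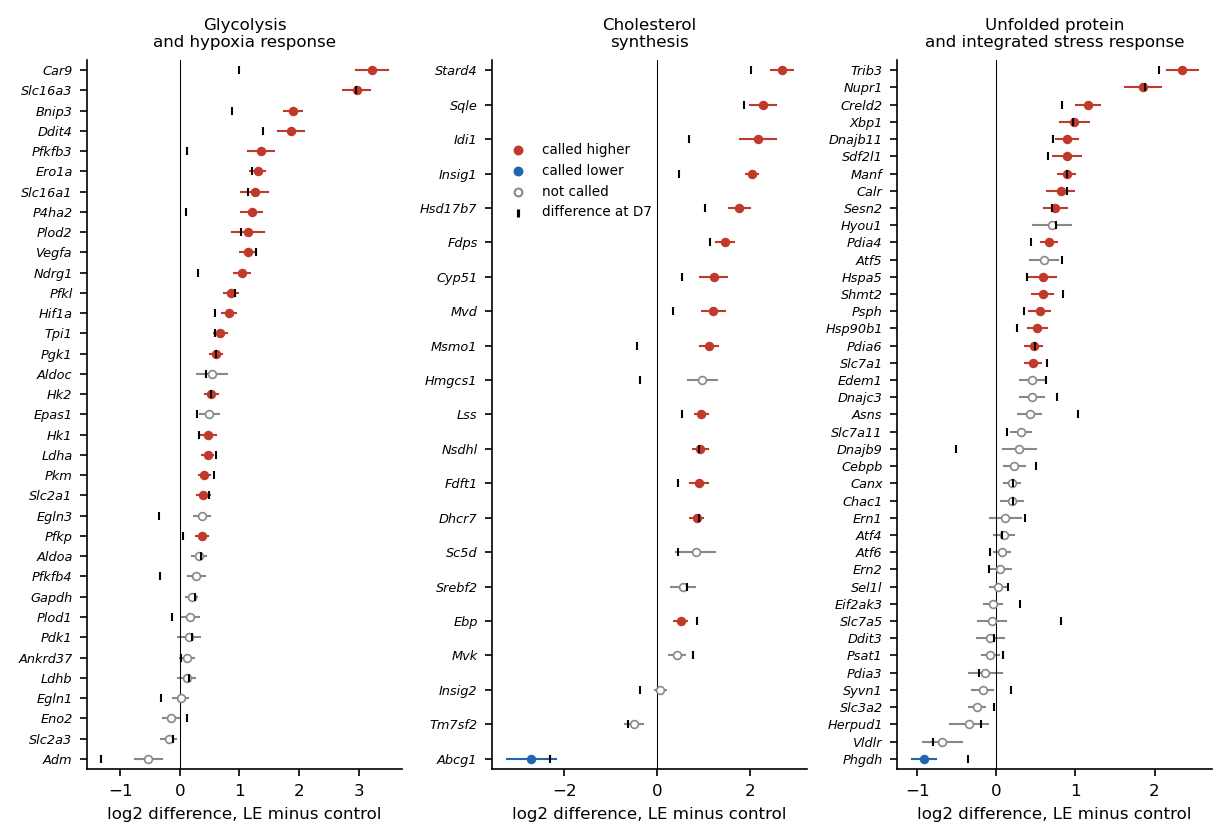
Log2 difference of the leading edge from control at D4, with its standard error as a bar, for the 35 glycolysis and hypoxia genes, the 21 cholesterol genes and the 41 stress response genes; filled points were called by limma, open points were not, and the black tick is the difference at D7. Most points of the first 2 panels lie to the right of 0, with Car9 at 3.22 and Stard4 at 2.69 at the top.

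Antioxidant and detoxifying genes split. Of 44 NRF2 and xenobiotic genes 11 rose, 7 of them in every fit, and 6 fell, all of them in every fit. Hmox1, heme oxygenase, read 9.98 and 9.82 in the LE and 6.82 and 6.89 in control and rose by 3.05 ± 0.20 (adjusted p = 2.39e-05). Akr1b8, an aldo-keto reductase, read 10.79 and 10.43 in the LE and 8.14 and 8.18 in control, and Srxn1, sulfiredoxin, rose by 1.72 ± 0.20 (adjusted p = 0.000548). The falls were of enzymes that handle foreign compounds and amines: Maob, monoamine oxidase, from 7.43 and 7.30 to 4.67 and 5.10, Ephx1, epoxide hydrolase, from 9.89 and 10.39 to 8.02 and 8.10, and Fmo1, Aldh3a1, Gstm2 and Gstm1 fell, with differences of -1.80, -1.60, -1.59 and -1.30. In the arginine and polyamine list 5 of 25 rose (3 without LE D4 replicate 1 or control D4 replicate 1) and 5 fell (3 without LE D4 replicate 2). Beside Arg1, the polyamine enzyme Odc1 read 10.90 and 10.43 in the LE and 8.79 and 8.10 in control and rose by 2.22 ± 0.29 (adjusted p = 0.000896), and Ass1, argininosuccinate synthase, rose by 1.55 ± 0.18 (adjusted p = 0.000469). The amino acid transporter Slc43a1 and the taurine transporter Slc6a6 fell, with differences of -2.35 ± 0.18 (adjusted p = 4.58e-05) and -1.82 ± 0.13 (adjusted p = 4e-05).

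Genes of large complexes differed little each. Of 36 proteasome subunits 15 were called higher and 0 lower (0 by unadjusted p under 0.05), with a median of 0.33, but the count was 3 without LE D4 replicate 1, 4 without control D4 replicate 2, 6 without LE D4 replicate 2, 8 without control D4 replicate 1 and 9 without either LE D7 array, either hub D7 array or either control D7 array, and 1 rise, of the assembly factor Pomp (0.46), was kept in every fit. Of 54 respiratory chain genes 6 rose (1 without LE D4 replicate 2 and 2 without LE D4 replicate 1 or control D4 replicate 2), and of 47 ribosome biogenesis genes 2 (0 without LE D4 replicate 2 or control D4 replicate 2 and 1 without LE D4 replicate 1). At D7, on separate arrays, 25 proteasome and 28 ribosome biogenesis genes were called higher, against 1581 of all 17097 genes at that day. The direct test of a change between the days called 5 genes, none of them in either list. In the vesicle list Rab31 rose by 3.37 ± 0.45 (adjusted p = 0.00105) and the coat protein Sec24d by 1.83 ± 0.20 (adjusted p = 0.000398). Of its 42 genes 5 rose and 3 fell, against 8.3% and 5.83% over all genes.

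In the lists of transcription regulators named here falls outnumbered rises. Of 26 immediate early and heat shock genes 1 rose and 9 fell, with a median of -0.27. Nr4a1, an orphan nuclear receptor that stimuli induce within the hour, read 8.81 and 9.16 in the LE and 11.21 and 11.14 in control and fell by 2.19 ± 0.13 (adjusted p = 1.71e-05), and Nr4a2 and Btg2 fell, with differences of -0.96 ± 0.14 (adjusted p = 0.00201) and -1.32 ± 0.19 (adjusted p = 0.00135). Of 15 circadian clock genes limma called 0 higher (0 by unadjusted p under 0.05) and 7 lower (46.7% against 5.83% over all genes), with the lowest median of the 66 lists, -0.68, and 12 had an unadjusted p under 0.05 and a negative difference. Per1, a repressor of the clock, read 7.54 and 7.98 in the LE and 8.84 and 8.78 in control, Hlf and Tef, output factors of the clock, fell, with differences of -1.40 ± 0.23 (adjusted p = 0.00339) and -0.99 ± 0.19 (adjusted p = 0.00696), and Rora fell by 1.30 ± 0.16 (adjusted p = 0.000727). Arntl (Bmal1) differed by -1.81, a call missed in 7 of the 12 leave-out fits (adjusted p up to 0.227, without LE D4 replicate 1). The time of day of the collections was not given in the sources used here. Of 14 genes of the glucocorticoid receptor and its targets 5 fell and 1 rose. Zbtb16 (PLZF), a zinc finger repressor, read 6.63 and 6.61 in the LE and 10.36 and 9.58 in control and fell by 3.36 ± 0.21 (adjusted p = 2.09e-05), and Klf9, a hormone-induced factor, read 7.84 and 8.23 in the LE and 10.01 and 10.19 in control and fell by 2.06 ± 0.17 (adjusted p = 7.29e-05). The rise was that of Ddit4, which low oxygen also induces, with a difference of 1.87 ± 0.22 (adjusted p = 0.00048).

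Of 45 epidermal and hair follicle transcription factors 3 rose (1 without LE D4 replicate 1 or control D4 replicate 2) and 9 fell (5 without LE D4 replicate 1). Runx1 rose by 0.83 ± 0.13 (adjusted p = 0.00256). Satb1, a chromatin organizer of epidermal lineage, fell by 2.02 ± 0.35 (adjusted p = 0.00442), Hopx, a marker of hair follicle stem cells, fell by 1.56 ± 0.15 (adjusted p = 0.000173), Sox21 fell by 1.58 ± 0.13 (adjusted p = 6.1e-05) and Myc fell by 1.16 ± 0.095 (adjusted p = 7.29e-05). Of 20 ETS factors Elk3, a serum response partner, rose by 2.03 ± 0.24 (adjusted p = 0.000512), and Elf1 and Ets2 fell, with differences of -1.16 ± 0.19 (adjusted p = 0.00284) and -0.83 ± 0.11 (adjusted p = 0.00129). Of 12 Kruppel-like factors limma called 0 higher (0 by unadjusted p under 0.05) and 2 lower (1 without LE D4 replicate 2, control D4 replicate 1, either LE D7 array, either hub D7 array or either control D7 array).

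**Figure D4:**
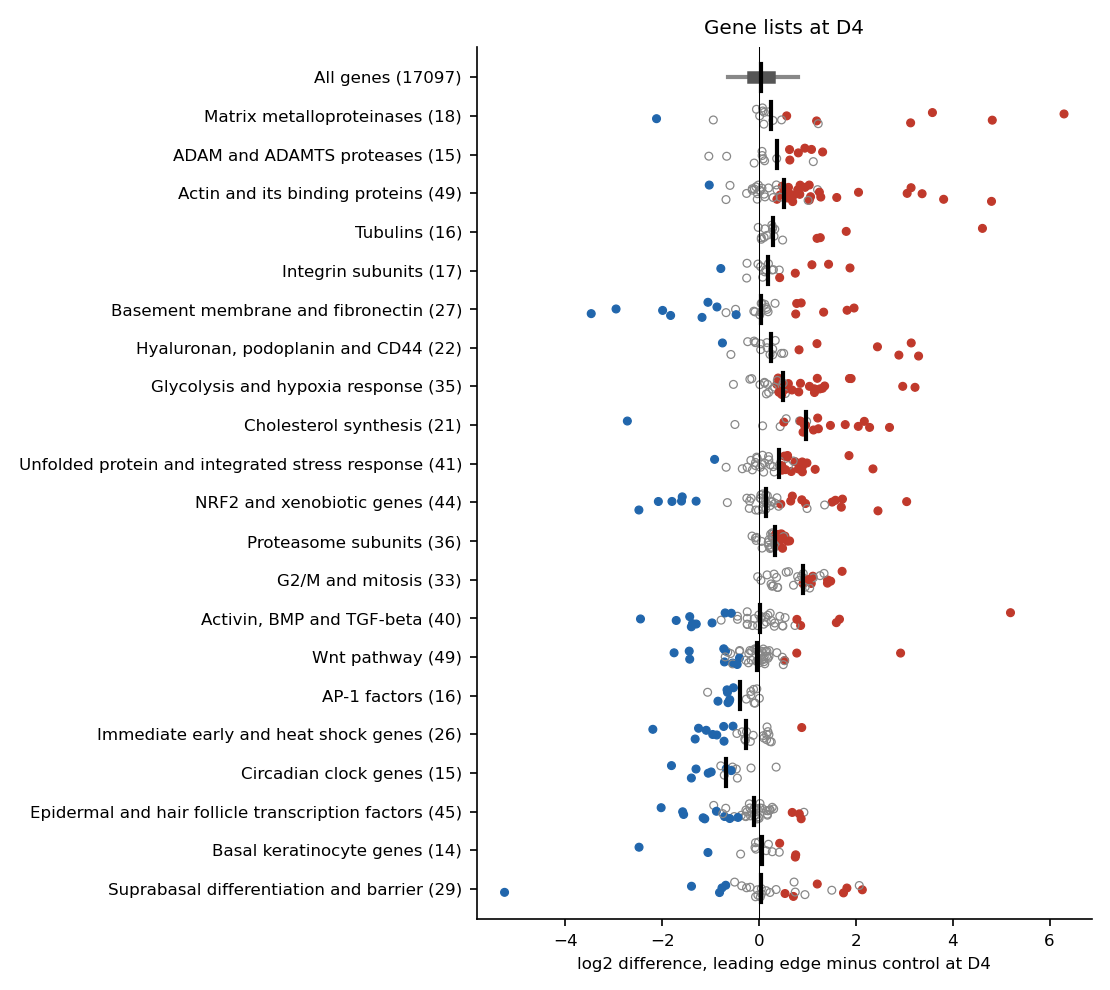
Log2 difference of the leading edge from control at D4 for each measured gene of 21 lists; filled points were called by limma (red higher, blue lower), open points were not, and the black bar is the median of the list. The top line shows all 17097 genes, with a thin bar from the 5th to the 95th percentile, a thick bar for the quartiles and the median at 0.03. Cholesterol synthesis has its median at 0.96 and the circadian clock genes at -0.68.

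Keratins and differentiation genes moved in both directions. In the tail, scale epidermis makes hair-type keratins, and of 11 scale and interscale keratins 2 fell and limma called 0 higher (0 by unadjusted p under 0.05). These were Krt36, above, and Krt84, which read 6.55 and 6.04 in the LE and 10.16 and 10.27 in control and fell by 3.92 ± 0.76 (adjusted p = 0.00785). Krt15, a keratin of less differentiated basal cells and of the bulge, read 7.26 and 8.31 in the LE and 10.01 and 10.52 in control and fell by 2.48 ± 0.39 (adjusted p = 0.00256). Krt2 differed by -5.26, with LE arrays at 3.93 and 7.83, and its call was missed in 7 of the 12 leave-out fits (adjusted p up to 0.28, without LE D4 replicate 1). Of 29 suprabasal and barrier genes 6 rose (2 without control D4 replicate 2) and 5 fell (2 without LE D4 replicate 1 or either control D4 array). Tgm1, the transglutaminase that crosslinks the cornified envelope, read 10.62 and 9.59 in the LE and 8.03 and 7.92 in control and rose by 2.13 ± 0.27 (adjusted p = 0.000803), and Cers3, a ceramide synthase of the barrier, rose by 1.81 ± 0.24 (adjusted p = 0.00105). Casp14, the caspase of cornifying cells, fell by 1.40 ± 0.24 (adjusted p = 0.00423). The summed level of the suprabasal markers was 29520 to 32020 in the LE and 35600 to 35680 in control. Of 21 small proline-rich and late envelope genes 5 rose (10 without LE D4 replicate 2) and limma called 0 lower (0 by unadjusted p under 0.05), all rises being of the proline-rich family, whose members are close in sequence and can share probes. Sprr2f read 8.07 and 6.76 in the LE and 4.47 and 4.08 in control and rose by 3.14 ± 0.41 (adjusted p = 0.000896). Of 10 stress keratins 4 rose (1 without either LE D4 array and 2 without either hub D4 array, control D4 replicate 2, either hub D7 array or either control D7 array), of which Krt6a kept its call in every fit, and 1 fell.

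Immune gene lists held calls in both directions. Of 31 genes of the interleukin families 6 rose and 5 fell (3 without LE D4 replicate 2 or control D4 replicate 1). Il4ra, the receptor chain for interleukins of the allergic response, rose by 1.97 ± 0.14 (adjusted p = 3.47e-05), and Il1f9, a cytokine of the interleukin-1 family made by keratinocytes, by 1.34 ± 0.16 (adjusted p = 0.000515). Il1r2, the decoy receptor for interleukin-1, read 5.11 and 5.46 in the LE and 8.17 and 8.72 in control and fell by 3.16 ± 0.41 (adjusted p = 0.000863). Il20rb, a receptor chain for the family of Il24, fell by 2.11 ± 0.26 (adjusted p = 0.000712), while Il24 itself read 11.62 and 11.06 in the LE and 7.68 and 6.56 in control. Of 27 chemokines and receptors 1 rose and 5 fell (18.5%, and 3 without control D4 replicate 1). Ackr4, a scavenging chemokine receptor, read 6.93 and 7.65 in the LE and 10.43 and 11.08 in control and fell by 3.47 ± 0.32 (adjusted p = 0.000136). Ccl27a, a keratinocyte chemokine for skin-homing T cells, read 8.10 and 8.83 in the LE and 10.98 and 11.46 in control and fell by 2.76 ± 0.30 (adjusted p = 0.000357), as did its 3 other probe sets. Of 38 interferon and antigen presentation genes limma called 0 higher (1 by unadjusted p under 0.05) and 4 lower (10.5% against 5.83% over all genes, and 1 without LE D4 replicate 2 or control D4 replicate 2), among which Irf1 fell by 1.16 ± 0.14 (adjusted p = 0.000717). Of 38 genes of NF-kB and death signals 7 rose (4 without LE D4 replicate 1 or control D4 replicate 2) and 6 fell (2 without LE D4 replicate 1 or control D4 replicate 1 and 3 without control D4 replicate 2). Tnfrsf23, a decoy receptor of the TRAIL family, read 9.08 and 8.66 in the LE and 5.50 and 4.92 in control and rose by 3.66 ± 0.34 (adjusted p = 0.000145), the gasdermin Gsdmc rose by 2.50 ± 0.34 (adjusted p = 0.00124), and Tnfrsf19 (TROY) fell by 2.74 ± 0.23 (adjusted p = 7.29e-05). Of 20 antimicrobial genes 2 rose, with a count of 0 without LE D4 replicate 1 or control D4 replicate 2, 1 without either hub D7 array or either control D7 array and 4 without LE D4 replicate 2.

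Cell cycle genes gave calls that depended on single arrays. Of 33 G2/M genes 9 were called higher, with a median of 0.91, and the count was 0 without control D4 replicate 1, 1 without LE D4 replicate 2, 2 without LE D4 replicate 1 and 18 without control D4 replicate 2. None of these 9 calls was kept in all of the leave-out fits. Of 42 DNA replication genes 11 rose (2 without control D4 replicate 2, 3 without LE D4 replicate 2 and 7 without LE D4 replicate 1, either LE D7 array or either hub D7 array), and Ccnd2, a D-type cyclin, fell by 1.05 ± 0.15 (adjusted p = 0.00135). Among 33 inhibitors and p53 targets 7 rose and 8 fell. E2f7 and E2f8, repressors among the E2F factors, rose by 2.90 ± 0.23 (adjusted p = 6.64e-05) and 1.50 ± 0.22 (adjusted p = 0.00186), and Gprc5a, a retinoid-induced receptor, read 10.66 and 9.73 in the LE and 6.74 and 6.93 in control. Trp53inp1, a p53-induced gene, fell by 1.90 ± 0.16 (adjusted p = 8.99e-05).

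The LE was also set against the hub, further from the wound, at the same day. Limma called 813 genes (4.76%) between the LE and the hub at D4, 446 higher and 367 lower in the LE. The LE and the hub were set against the same control arrays, so their differences from control are given only gene by gene. Arg1 in the hub read 5.51 and 5.48, as in control, and was lower there than in the LE by 4.39 (adjusted p = 0.000203) on the log2 scale. Gjb6 read 5.18 and 5.29 in the hub and differed from the LE by 3.29 (adjusted p = 1.51e-05). Maob read 7.82 and 7.66 in the hub, at or above control, and the LE differed from it by -2.86 (adjusted p = 3.67e-05). For Mmp1b, Wnt5a, Hmox1 and Fblim1 the LE exceeded the hub by 2.72 (adjusted p = 0.000215), 2.10 (adjusted p = 0.00199), 2.20 (adjusted p = 0.000396) and 2.88 (adjusted p = 0.000203). Mmp9 and Krt36 differed between the hub arrays, at 9.64 and 5.88 for Mmp9 and 9.18 and 11.32 for Krt36, with replicate 1 nearer the LE in both. The LE over hub test gave 3.69 (adjusted p = 0.0538) for Mmp9, which was not called but was without hub D4 replicate 1 (adjusted p = 0.000985), and -4.62 (adjusted p = 0.0255) for Krt36. Without 1 array the other 7 of these genes kept their calls in all 12 fits, while Krt36 lost its call in 3, with the highest adjusted p, 0.179, without hub D4 replicate 2. The count of 813 was 364 without LE D4 replicate 1 and 322 without hub D4 replicate 2. Of the 49 actin genes 16 were called above the hub, and of the 21 cholesterol genes 3.

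At D7 the comparison of LE and control, on separate arrays, called 2499 genes (14.6%), 1581 higher and 918 lower. The calls shared with D4 were 891 higher, which are 62.8% of the D4 rises and 56.4% of the D7 rises, and 573 lower, which are 57.5% and 62.4%. Called in opposite directions were 2 genes, Eea1, an endosomal tether (0.83 at D4 and -0.55 at D7), and Fance, a DNA repair gene (-0.55 and 0.60), whose D4 call was missed in 6 of the 12 leave-out fits (adjusted p up to 0.208, without control D4 replicate 2). Tested directly, the difference between LE and control changed from D4 to D7 in 5 genes (0.0292%). The deposited values of the days lie on different scales, as given above. With quantile normalization of the 12 arrays together the count was 7 and these 5 genes remained called (adjusted p up to 0.0435). Uox was 4.58 at D4 and 0.45 at D7, a change of 4.13 (adjusted p = 0.004). Gjb6 was 3.88 and 1.17, a change of 2.71 (adjusted p = 0.00318), and Stfa2l1, a stefin-like protease inhibitor, 3.40 and 0.29, a change of 3.11 (adjusted p = 0.00151). These 3 kept that call in all 12 leave-out fits. Insig1 was 2.05 and 0.47, a change of 1.58 (adjusted p = 0.0346), and Ctsf -1.75 and -0.14, a change of -1.60 (adjusted p = 0.0154). The call of Insig1 was missed in 7 of these fits (adjusted p up to 0.213) and that of Ctsf in 6 (0.103), and with the replicate number as a block that of Ctsf was not made (adjusted p = 0.0722). The second probe set of Ctsf read -0.01 at D4. Without LE D4 replicate 2 the count of such genes was 49, without control D4 replicate 2 it was 15, and without LE D4 replicate 1, LE D7 replicate 2 or either hub D7 array it was 3. Other genes with a smaller difference at D7, such as Car9 (3.22 and 1.00), Pfkfb3 (1.35 and 0.12), Arg1 (4.48 and 1.62) and Mmp1b (3.13 and 0.98), did not pass this test.

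**Figure D5:**
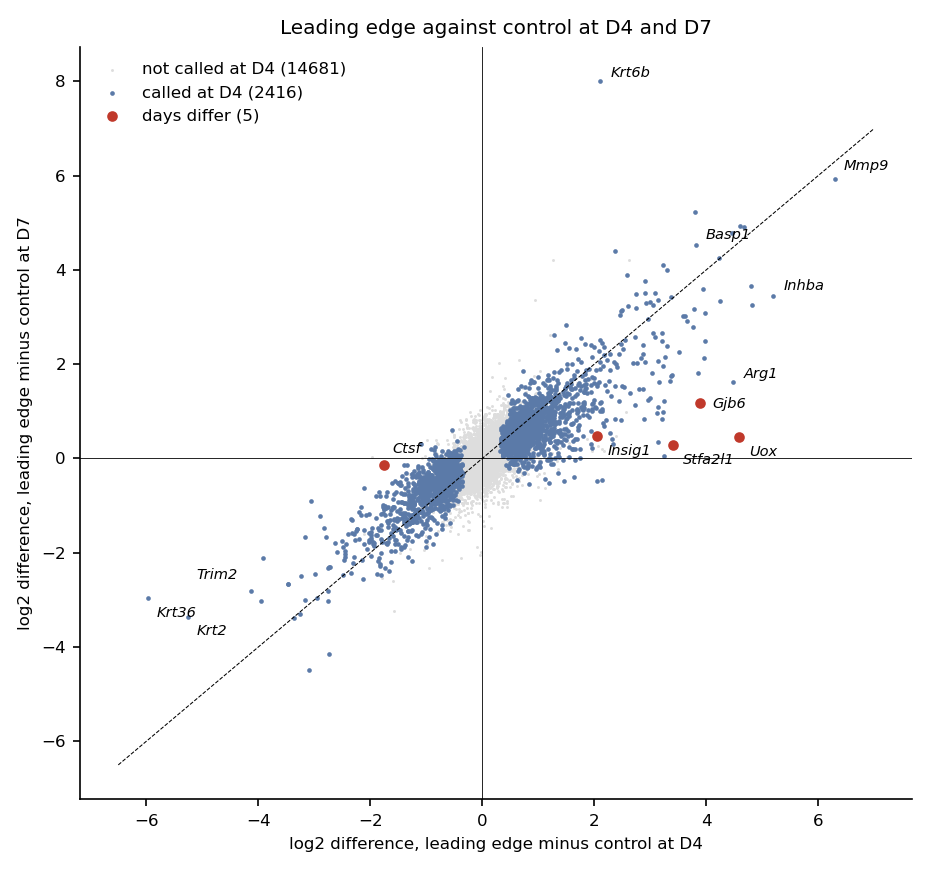
Log2 difference of the leading edge from control at D4 (horizontal) and D7 (vertical) for each gene; blue points were called at D4 (2416), red points are the 5 genes whose difference changed between the days, and the dashed line marks equal differences. Uox, Stfa2l1 and Gjb6 lie far to the right of the line, while Mmp9 and Basp1 lie near it.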

How the data were processed

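RNA of basal cells had been amplified from a small number of sorted cells and hybridized to Affymetrix PM strip arrays of the mouse genome, 2 for each of 6 groups. The deposited values are log2 intensities. The authors had used RMA, which corrects background, quantile normalizes the arrays and merges the probes of each set. Its version was not given in the sources used here, nor whether all arrays were normalized in 1 run, and the deposited D4 and D7 arrays differ in scale (medians over genes of 6.06 to 6.15 and 4.89 to 4.93). The amplification and the summary can compress large differences, and precision is limited by the number of arrays.

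Of 45141 probe sets, 28898 were paired with 1 gene in the platform annotation, 551 with several and 15588 with none. The last 2 kinds and 104 controls were left out of the tests of genes. No dim probe set was removed. With limma 3.58.1 (R 4.3.3) 1 model was fitted to the 6 groups, and contrasts were taken within a day or between days. The procedure was tested on simulated data. Groups came from the sample titles.

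The members and the 66 gene lists were chosen with earlier results of these data known. Lists are described by counts and medians beside those over all genes, with no test of a list. Genes were named if they held one of the 20 largest called rises or falls and passed 2-fold in all 4 pairs of arrays, ranked in the first 8 called genes of a list by size or opposed its majority, were named by the study for the LE, antigens of the sort or cell type markers. Named outside this rule after their values were seen were Arpc5, Eea1, Efnb2, Fance, Hspa5, Pfkl, Pgk1, Stfa2l1, Tpi1, Vasp and Vcl. Promoter windows are from RefSeq on GRCm38.p6, and 13605 genes had one, of which 2517 had several and the first listed was used. Further pairs of list and motif were searched than those described above. AP-1 stood in 7 of 19 windows of the small proline-rich list and TEAD in 11 of 20 of the YAP/TAZ list. The clock E-box stood in 4 of 14 clock windows, the antioxidant element in 6 of 34 NRF2 windows and E2F in 5 of 34 DNA replication windows. The sterol response element was also searched for and is not reported here. Alternatives were the scaling, the choice of probe set, a filter on genes with a mean under 5, array weights, another prior, smaller fits, a replicate block, fold rules and leaving out each array. Some genes that the study names are not reported here.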

Additional observations from a re-analysis of the deposited data

Results flagged for a closer look

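The difference between LE and control was larger at D4 than at D7, by a test of the change itself, for Uox (by 4.13 on the log2 scale), Stfa2l1 (3.11), Gjb6 (2.71) and Insig1 (1.58). For Ctsf the D4 difference was lower than the D7 difference, a change of -1.60. The calls of Insig1 and Ctsf were not kept in all fits without 1 array.

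Among the 15588 probe sets that the platform annotation pairs with no gene, tested by limma apart from the genes, 8.05% were called at D4, with 550 higher and 705 lower in LE arrays. They stand in no comparison of genes, and which transcripts they measure was not analysed here.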

How the results depend on the processing

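The counts of genes called between LE and control at D4 moved little under the scaling, probe set, dim gene, array weight and prior alternatives, between 1150 and 1669 higher and between 803 and 1261 lower. Smaller fits called fewer genes, 796 higher and 556 lower with the 6 arrays of D4, and 517 and 378 with the 4 arrays compared, of which 1315 and 880 genes were shared with the fit on 12 arrays. A test of a change of at least 2-fold called 92 higher, 51 lower and 18 between LE and hub. The rule of more than 2-fold in each replicate of the same number gave 387 and 266, and in all 4 pairs 304 and 199. Leaving out each of the 12 arrays in turn, with a lone array assumed to vary like the other groups, gave 899 to 1346 higher, 647 to 961 lower, 322 to 907 between LE and hub, and 3 to 49 whose difference changed between the days. LE over hub was 263 with the 6 arrays of D4, and the change between the days was called in 15 genes with the trended and robust prior.

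Of the 216 named genes called, 200 were kept without any 1 array and the others are given with their exceptions beside their values. The 2-fold test kept 73, the 4-array fit 185 and the 6-array fit 198. Krt6a, Pomp and Spred2 were among the genes not called in the 4-array fit, and Spred2 was not called in the 6-array fit. Of the 216 genes 108 had another probe set, which had the opposite sign in 9 and was called in the opposite direction in none. In other genes, among them Inhba, Limk1, Myo5b and Acta2, it had the same sign but was not called. No called difference among them changed sign under any alternative.

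With the replicate number within the day as a block, limma called 1527 genes higher, 1092 lower, 1014 between LE and hub and 5 between the days, and among the named genes it lost the call of Fance. The labels do not say that a number marks shared mice. The deviations of same-numbered arrays at D4 correlated at 0.17 between LE and control, 0.206 between LE and hub and 0.245 between hub and control, and at D7 at 0.0666, 0.00234 and 0.0292 in that order. Same-numbered arrays thus deviated together at D4, and whether they share mice or a day of work is not known from the labels. Under the block the change of Ctsf between the days was not called (adjusted p = 0.0722).

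Depth in the sense of reads does not apply to arrays. With 2 arrays per group, an uncalled gene is not shown to be equal between the groups, and levels of different probe sets cannot be set against each other.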
